A study of Mus musculus with 4 samples.

Results

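Endothelial cells were a small part of 3 sorted single-cell libraries of the mouse aorta. Of 28540 cells that passed the cell filter, 124 were taken as endothelial (called members below): 51 of 8579 in SHF_Baseline, 33 of 9490 in SHF_AngII and 40 of 10471 in CNC_AngII. A barcode was kept when 500 or more genes were detected and mitochondrial genes gave no more than 10% of its unique molecular identifiers (UMIs, each 1 captured transcript). It was called endothelial when at least 4 of 8 endothelial genes (Pecam1, Cdh5, Kdr, Vwf, Cldn5, Tie1, Egfl7 and Emcn) had a UMI, Myh11 had fewer than 5 and Pdgfra had 0. These 10 genes chose the cells, so their levels describe the choice and support nothing.

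The study asked how cells that stem from the second heart field (SHF), an embryonic source of the outflow tract and the root of the aorta, differ in the ascending aorta from cells of other origin when angiotensin II (AngII), a peptide that raises blood pressure, is infused. All mice were males of the strain Mef2c-mTmG, whose name joins a Mef2c driver and the mTmG reporter, a fluorescent membrane protein that changes colour in cells with Cre activity and in their progeny. SHF_Baseline held SHF-sorted cells of mice at baseline, SHF_AngII held SHF-sorted cells after 3 days of AngII, and CNC_AngII held cells of the other sort, which the labels call CNC without spelling it out, after 3 days of AngII. All groups were digested aorta from which living single cells were sorted by lineage colour, not by an endothelial antigen, and captured with the 10x Chromium 3′ v3 kit. CNC_Baseline was not analysed here. The labels give neither an age nor the number of mice pooled. Since a group is 1 library, no test was possible, and every difference below compares libraries. Intervals are exact 95% intervals that cover counting error only.

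Endothelial cells line every vessel, sense the shear of flowing blood and release nitric oxide and endothelin, which relax and contract the muscle beneath them. Large arteries, capillaries and lymphatic vessels carry different endothelial programmes: connexins and Notch ligands in arteries, fatty acid transport in capillaries of muscle and fat, and Prox1-driven genes in lymphatics. Blood reaches the outer aortic wall through small vessels of its own, and lymphatic vessels also run there.

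Many endothelial genes share short binding sites for ETS factors, a family that includes Erg and Fli1, whose core is GGAA. The promoters of 3 genes that did not choose the cells are shown because they mark the cell type: of a list of endothelial genes outside the rule, these 3 had the highest ratio of members to other cells among those with an entry in the promoter table. Each sequence runs 5′ to 3′ on the gene's strand from 250 bases before to 50 bases after the start, from RefSeq on GRCm38.p6, and capitals mark CTTCCT, the reverse complement of AGGAAG.
Myct1, chr10:5593478-5593777, plus strand: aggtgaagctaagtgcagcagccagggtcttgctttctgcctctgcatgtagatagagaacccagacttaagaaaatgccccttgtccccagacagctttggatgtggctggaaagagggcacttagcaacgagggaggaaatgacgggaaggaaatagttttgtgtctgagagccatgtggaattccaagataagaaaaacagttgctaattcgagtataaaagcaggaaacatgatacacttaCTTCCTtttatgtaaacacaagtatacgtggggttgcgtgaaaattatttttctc
Rasip1, chr7:45627287-45627586, plus strand: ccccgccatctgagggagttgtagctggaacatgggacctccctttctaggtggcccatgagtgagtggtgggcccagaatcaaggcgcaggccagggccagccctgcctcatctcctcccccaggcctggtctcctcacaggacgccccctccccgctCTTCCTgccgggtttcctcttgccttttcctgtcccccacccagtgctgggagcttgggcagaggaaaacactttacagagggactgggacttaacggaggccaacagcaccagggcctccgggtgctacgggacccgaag
Cyyr1, chr16:85550324-85550623, minus strand: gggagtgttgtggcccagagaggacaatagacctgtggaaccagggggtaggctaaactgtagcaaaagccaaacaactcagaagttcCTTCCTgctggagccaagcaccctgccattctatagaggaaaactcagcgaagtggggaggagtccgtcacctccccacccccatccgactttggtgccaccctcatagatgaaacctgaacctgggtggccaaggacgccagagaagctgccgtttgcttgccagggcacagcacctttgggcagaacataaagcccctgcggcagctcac
Each window held 1 match, read on both strands with AGGAAG as the only motif searched. Of the 26 genes in a list of endothelial genes outside the rule, 12 had an entry in the promoter table and 8 of these 12 (66.7%) held the motif, beside 11613 of all 32851 promoters of this length (35.4%). A match describes the letters of the window and not a bound site.

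Members made up 0.594% of kept cells in SHF_Baseline (Clopper-Pearson interval 0.443 to 0.781%), 0.348% in SHF_AngII (0.239 to 0.488%) and 0.382% in CNC_AngII (0.273 to 0.520%). These are shares of a sort, which can set them, and not of the aortic wall. The members held 432029, 349579 and 238422 UMIs, with a median per cell of 7063, 8729 and 4888, below the medians of 10411.5, 13491 and 12794 in the other kept cells of the same libraries. Of the members, 10 had a UMI for 4 of the 8 genes, 30 for 5, 45 for 6, 37 for 7 and 2 for all 8. Just outside the rule stood 4 barcodes with 3 genes, whose median was 21.6 UMIs of the endothelial list outside the rule per 10000, against 51.6 in the 10 members with 4. A further 18, 4 and 9 barcodes had 4 or more endothelial genes but too much Myh11 or any Pdgfra, and were left out by the rule. No member was marked as a doublet, and none shared its barcode with another library, although 29 to 34 barcodes recurred between each pair of libraries.

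The genes that set the members apart from all other kept cells most were Icam2, Ctla2a, Mmrn2 and Myct1. Expression was summed over cells and given as UMIs of a gene per 1000000 UMIs (CPM). Of 3424 genes with at least 50 CPM on either side, 251 (7.33%) were at least 4-fold higher in members, and the median log2 ratio of CPM + 1 over all 3424 was 0.21. Since the members were chosen on genes of the same cells, this profile is a description. Of the 26 endothelial genes outside the rule, 22 were tested, 21 were at least 4-fold higher and all 22 were higher in each of the 3 libraries, with a median log2 ratio of 5.82. Genes scarce in other cells were tested only if they reached 50 CPM in members. Such genes had to come out higher, so these counts describe the choice of cells and support nothing.

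Icam2, an adhesion molecule of endothelial junctions, led the list with 449 CPM in SHF_Baseline, 435 CPM in SHF_AngII and 436 CPM in CNC_AngII, against 0.930 CPM in other cells, a log2 ratio of 7.84. It had a UMI in 86.3% of members and 0.771% of other cells, although the other cells were more deeply sequenced. Its level hardly moved between the libraries. Ctla2a, a cathepsin inhibitor, stood at 1674, 2188 and 1900 CPM (log2 ratio 7.72), although its gene overlaps 2 others in the annotation. Mmrn2, a matrix protein of the endothelial surface that binds VEGF, stood at 400, 306 and 285 CPM (7.63). Myct1, a membrane protein of endothelial cells, stood at 324, 252 and 260 CPM (7.50).

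Several of the leading genes differed between the libraries. The transcription factor gene Sox18 stood at 264, 143 and 180 CPM in SHF_Baseline, SHF_AngII and CNC_AngII, whereas its relative Sox17 stood at 92.6, 154 and 185 CPM. In SHF_AngII 22 of the 54 Sox17 UMIs lay in 1 cell. In the large-vessel group described below Sox17 stood at 95.2, 166 and 80.7 CPM, so CNC_AngII was lowest there, and capillary-like cells held 32 of its UMIs. The arterial kinase gene Bmx stood at 282, 163 and 222 CPM in all members and at 290, 169 and 343 CPM in large-vessel members. The arterial connexin gene Gja5 stood at 157, 65.8 and 105 CPM in all members and at 162, 70.2 and 168 CPM in large-vessel members, so Bmx and Gja5 were lowest in SHF_AngII. Sox17, on the same list of 8 arterial markers, was highest there among large-vessel members. Those markers summed to 968, 881 and 1164 CPM in large-vessel members. Klk8, a secreted protease, had 310, 126 and 138 CPM, and Gkn3 had 308, 57.2 and 50.3 CPM, so both were highest at baseline. Bmp6, a bone morphogenetic protein, showed the opposite order with 25.5, 335 and 298 CPM. Stmn2, a microtubule regulator best known from neurons, was level across the libraries at 252, 260 and 214 CPM, in 43.5% of members and 0.264% of other cells. The other named genes, with log2 ratios of 6.43 to 6.87, were Adgrf5, Clec1a, Rasip1, Cd93, Nos3, Ptprb, Selp and Palmd.

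**Figure D1:**
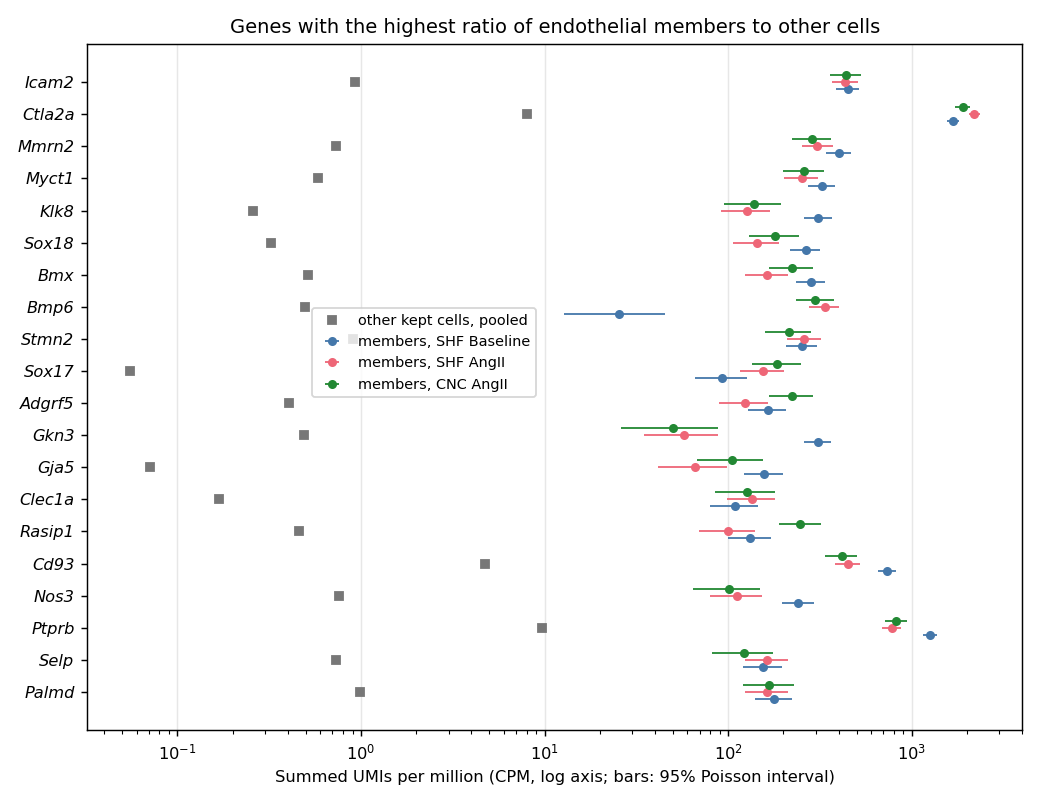
Levels of the 20 genes with the highest ratio of endothelial members to other kept cells. The x axis gives summed CPM on a log scale, circles the 3 libraries with 95% Poisson intervals and grey squares all other kept cells. Icam2 sits between 435 and 449 CPM in each library, while Bmp6 is at 25.5 CPM in SHF_Baseline and at 335 and 298 CPM in the AngII libraries.

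By role, 6 of 9 tested arterial genes, 4 of 4 venous genes, 7 of 14 vasoactive genes and 7 of 13 junction genes were at least 4-fold higher in members than in other cells. These lists held 16, 9, 17 and 18 genes, and genes scarce in other cells were tested only if members reached 50 CPM. Such genes had to be higher, so these counts too cannot be set against the shares over all genes. Over all 3424 genes 7.33% were that much higher and 6.66% (228) that much lower. Of 9 basement membrane genes 0 were higher and 2 lower by 4-fold, and of 14 immediate early genes and 12 heat shock genes 0 differed 4-fold, counts too small to set against these shares. Among the vasoactive genes, endothelin 1 (Edn1) stood at 701, 893 and 289 CPM in the same order of libraries and its processing enzyme Ece1 at 882, 850 and 671 CPM. Ace, which makes angiotensin II from angiotensin I, stood at 407, 375 and 382 CPM, a log2 ratio of 2.28 to other cells. Agtr1a, an angiotensin II receptor, had 0 UMIs in the members of every library, which allows up to 3 UMIs per library, and other kept cells stood at 2.20 CPM, so its absence cannot be read at this depth. Ramp2, the partner of the adrenomedullin receptor, had 993, 893 and 1120 CPM.

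A total of 4 groups of members could be told apart by genes that the rule did not use. Members with at least 3 of 7 macrophage markers were set aside first, then those with at least 3 lymphatic and then those with at least 3 capillary markers, and the remaining cells are called large-vessel members. This last group is a remainder that no marker of its own chose. It holds a SHF_AngII cell with 11 UMIs of the lymphatic marker Mmrn1 and 0 of Cytl1 and Vwf. It also holds a SHF_Baseline cell with 36 UMIs of the capillary marker Rbp7 and another with 618 of the fibroblast marker Dcn, both with 0 of Vwf. The 2 SHF_AngII cells with the most UMIs, 35658 and 24672, are in this group and also had 0 of Cytl1 and Vwf. They held 53 and 183 UMIs of the smooth muscle marker Acta2, and 22 and 13 of the arterial marker Sox17. The threshold of 3 was chosen after the counts were seen. It left 101 large-vessel members, 14 capillary-like, 7 lymphatic-like and 2 macrophage-marked members. Near the threshold, 5 members had 2 of the 7 capillary markers measured and 4 had 3, whereas 13 had more. The median was 6695 UMIs per large-vessel cell, 3584 per capillary-like cell and 16132 per macrophage-marked cell.

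The large-vessel members carried a median of 3 of 8 arterial and 1 of 5 venous markers. Cytl1, a small secreted protein, had a UMI in 95 of these 101 cells and in 0 of 14 capillary-like cells, Vwf in 91 and 0, Bmx in 68 and 0 and Gja5 in 57 and 0. None of these 4 genes was among those that set the groups, although Vwf was among the genes that chose the members. The 10 genes with the highest ratio of large-vessel to capillary-like cells were chosen after their values were seen, and all 10 had 0 UMIs in the capillary-like cells. They included Bmp4, a bone morphogenetic protein (1293 CPM, in 93 of 101 cells), the protease Ctsh (1186 CPM, 96 cells), Edn1 (755 CPM, 67 cells), the Wnt antagonist Sfrp1 (739 CPM, 77 cells) and the prostacyclin synthase Ptgis (528 CPM, 93 cells). For Ptgis and Ctsh the other kept cells stood at 1077 and 255.6 CPM.

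The capillary-like members held genes of fatty acid uptake. Gpihbp1, which anchors lipoprotein lipase on the capillary wall, had a UMI in 14 of 14 of them and in 1 of 101 large-vessel cells, and Fabp4, a fatty acid carrier, in 14 and 33. Their levels in the capillary-like cells were 2340 CPM for Gpihbp1, 20873 CPM for Fabp4 and 1682 CPM for the fatty acid transporter Cd36, all 3 being markers that set the group. Outside the markers, and chosen after their values were seen, Tcf15, a transcription factor that works with Meox2 in cardiac capillaries, had 27 UMIs in 10 of 14 cells and 0 in the large-vessel cells. C1qtnf9, a secreted relative of adiponectin, had 19 UMIs in 10 cells and 0, and Sparcl1, a matrix protein, had 45 UMIs in 12 cells against 2 UMIs. Their depth was the lowest of the groups, which limits what can be said of genes at 0 in them.

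By the threshold of 3 markers the lymphatic-like members were 2, 2 and 3 cells. Near it, 4 members had 2 of the 7 lymphatic markers, 1 had 3 and 6 had more. The cell with 3, in SHF_AngII, also held 42 Cytl1 and 21 Vwf UMIs and 0 of Ccl21a, so its markers fit the large-vessel group as well. Prox1, the transcription factor of lymphatic identity, had a UMI in 6 of the 7, and the chemokine gene Ccl21a in 5. Outside the markers, Adamtsl1 (20 UMIs in 6 cells), Adgrg3 (14 UMIs in 5 cells), Sema3a (14 UMIs in 4 cells) and Maf (18 UMIs in 5 cells) had 0, 0, 0 and 1 UMIs in the 101 large-vessel cells. With so few cells, 1 cell can set a level: 347 of the 388 Ccl21a UMIs of SHF_Baseline came from 1 cell.

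**Figure D2:**
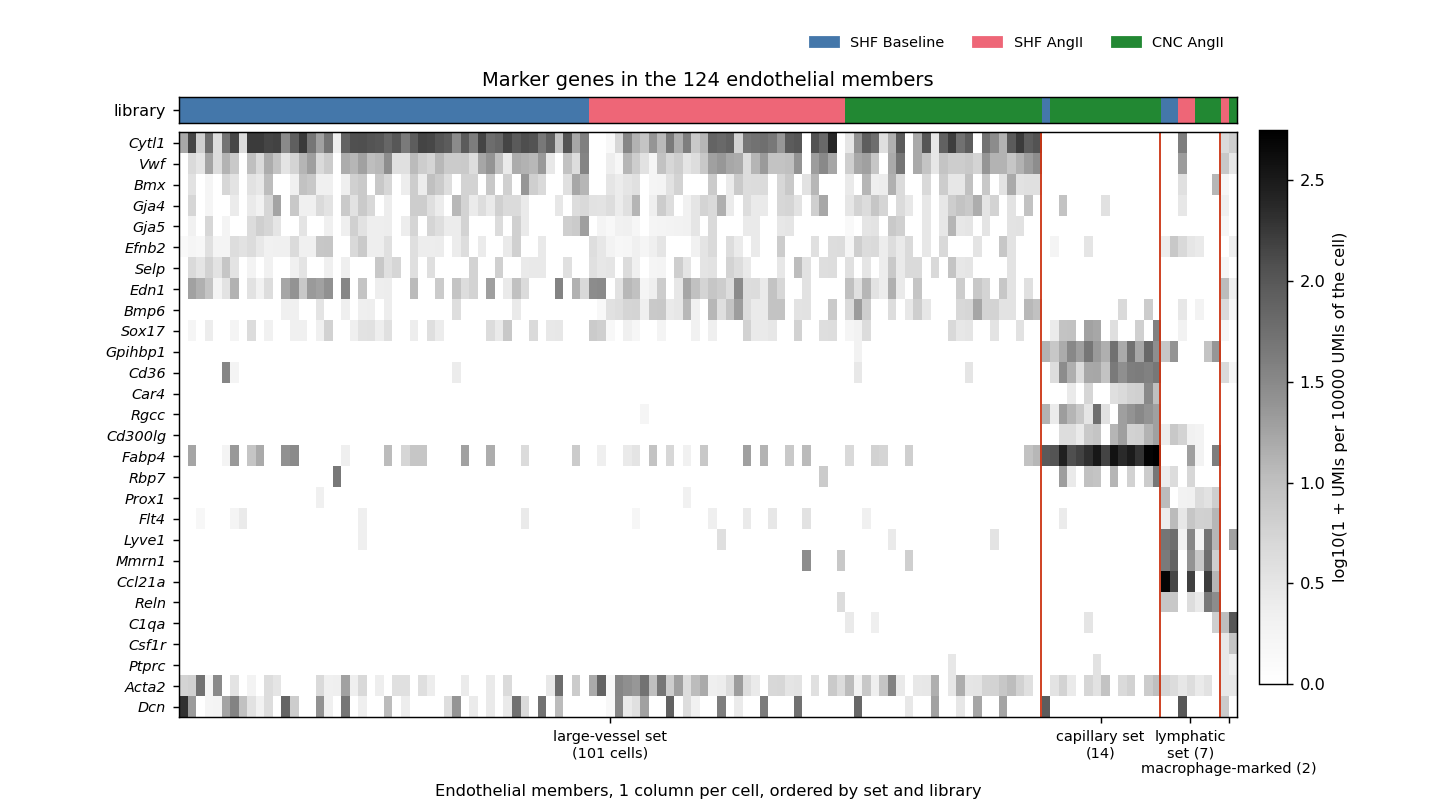
Marker genes in each of the 124 members. Columns are cells ordered by group and library, rows are genes, and the grey scale gives log10 of 1 plus UMIs per 10000 UMIs of the cell. The 14 capillary-like cells show Gpihbp1 and Fabp4 and lack Cytl1 and Vwf, and the 7 lymphatic-like cells show Prox1 or Ccl21a.

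The groups were unevenly spread over the libraries. Large-vessel members were 48 of 51 in SHF_Baseline (94.1%, interval 83.8 to 98.8%), 30 of 33 in SHF_AngII (90.9%, 75.7 to 98.1%) and 23 of 40 in CNC_AngII (57.5%, 40.9 to 73.0%). Capillary-like members were 1 of 51 (1.96%, 0.0496 to 10.4%), 0 of 33, which allows up to 9.09%, and 13 of 40 (32.5%, 18.6 to 49.1%). The interval of the capillary-like share in CNC_AngII lay above those of both SHF libraries. After each cell was thinned to 2000 UMIs, with 1, 0 and 4 shallower cells left out, the share in CNC_AngII was 10 of 36 (27.8%). The capillary-like cell of SHF_Baseline, with 1694 UMIs, was the shallower cell left out there, so thinning says nothing of that library's share. Whether the lineage sort, the dissected tissue or the preparation of 1 library goes with this difference cannot be told apart.

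**Figure D3:**
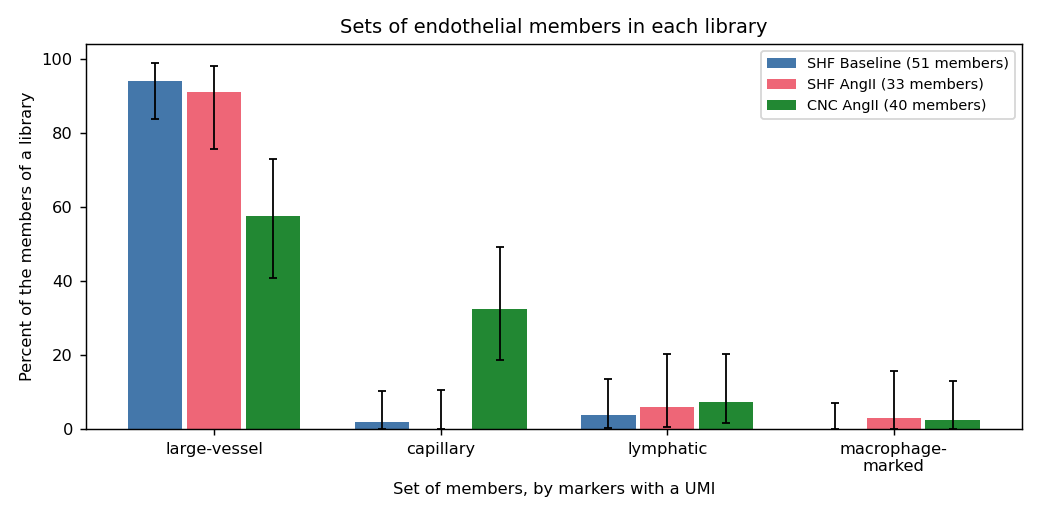
Share of the members of each library that fell in each group, as bars from 0 with 95% Clopper-Pearson intervals. Capillary-like cells make up 32.5% of the members of CNC_AngII, 1.96% of those of SHF_Baseline and 0 of the 33 of SHF_AngII.

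The next comparison was AngII against baseline among SHF-sorted cells. Of 3029 genes with a mean of at least 50 CPM, 172 (5.68%) were at least 2-fold higher and 211 (6.97%) at least 2-fold lower in SHF_AngII, with a median log2 ratio of 0.02. The baseline file was made with another gene annotation than the AngII files, so the ratio of the same gene in the smooth muscle cells and then the fibroblasts of the same libraries is given for the named genes and most others. Among large-vessel members alone, 188 of 3006 genes (6.25%) were higher and 235 (7.82%) lower.

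Bmp6 (chr13:38345107-38500302, plus strand, GRCm38, GENCODE M21), which signals through SMAD proteins and is known in liver endothelium as a regulator of iron balance, was the named gene with the highest ratio. The members held 11 UMIs in SHF_Baseline, 117 in SHF_AngII and 71 in CNC_AngII. Among large-vessel members, 18.8% of SHF_Baseline cells had a UMI, 80.0% of SHF_AngII and 69.6% of CNC_AngII, and per cell the lowest, median and highest counts were 0, 0 and 2, then 0, 2 and 12, then 0, 2 and 21. The counts of the libraries overlapped, and 9 of the 48 baseline cells had any UMI. The log2 ratio of SHF_AngII over SHF_Baseline was 3.67 (interval 2.82 to 4.76), beside 0.34 in smooth muscle cells and 0.77 in fibroblasts. Smooth muscle cells held 0 and 0.269 CPM of Bmp6 in SHF_Baseline and SHF_AngII, and fibroblasts 0.311 and 1.23 CPM. At such levels the added 1 CPM holds a ratio near 0. After thinning, 6.25%, 36.7% and 43.5% of large-vessel cells had a UMI, and unthinned 0.503% of all other kept cells did. Without the SHF_AngII cell with the most Bmp6 UMIs the ratio was 3.54.

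Among the other named genes that were higher in SHF_AngII, Sox4, a transcription factor, stood at 85.6, 295 and 201 CPM (log2 ratio 1.77, interval 1.23 to 2.37, beside -1.14 in smooth muscle cells and 0.04 in fibroblasts), with a UMI in 17 of 48, 21 of 30 and 9 of 23 large-vessel cells. Litaf, a lysosomal membrane protein induced by lipopolysaccharide, stood at 71.8, 203 and 222 CPM (1.49, beside -0.12 and -0.25), and Psmc4, a subunit of the proteasome, at 71.8, 192 and 138 CPM (1.40, beside 0.61 and 0.99). Psmc4 was thus higher by less than 2-fold in the other classes too. Gap43 stood at 23.1, 177 and 37.7 CPM (2.88, beside 0.09 and -1.03), but smooth muscle cells of the SHF libraries held at most 0.0989 CPM of it. Stmn1 stood at 67.1, 298 and 344 CPM (2.13, beside 1.22 and 3.19), so Stmn1 was higher in all 3 cell classes. Esd stood at 174, 675 and 239 CPM (1.95, beside 0.44 and 0.34) and Taldo1, an enzyme of the pentose phosphate pathway, at 144, 544 and 197 CPM (1.91, beside 0.27 and 0.01). Cited2 stood at 55.6, 217 and 75.5 CPM (1.95, beside -0.01 and -0.94) and Kitl, the ligand of the receptor Kit, at 53.2, 206 and 101 CPM (1.93, beside -1.17 and -0.75). The locus of Stmn1 overlaps Gm23634 in the annotation.

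Single cells carried much of some of these values. The SHF_AngII member with the most UMIs, 35658 or 10.2% of the UMIs of that library's members, had the highest count of 5 of the 10 higher named genes. It held 49 of the 72 Kitl UMIs, 34 of 76 for Cited2 and 27 of 62 for Gap43. Without it the log2 ratio of Kitl was 0.45, that of Cited2 1.25 and that of Gap43 2.22. The same cell held all 60 Apln UMIs and 66 of the 101 Igfbp3 UMIs of the library, from a list of genes of sprouting tip cells. Another cell held 71 of 236 Esd UMIs and 57 of 190 Taldo1 UMIs. Among large-vessel members, 1 cell held 38 of the 82 Stmn1 UMIs of SHF_AngII. In CNC_AngII 1 large-vessel cell held 62 of 76 Stmn1 UMIs, and 3 of 23 had any. The other 9 higher named genes stayed at least 2-fold higher without their top cell, Kitl being the exception.

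The genes of cell division were higher too. All 5 tested genes of that list (Stmn1, Tubb5, H2afz, Hmgb2 and Pcna) were at least 2-fold higher, with a median log2 ratio of 1.49. The median Stmn1 count per large-vessel cell was 0 in each library. Tubb5, a tubulin subunit, stood at 338 and 769 CPM in SHF_Baseline and SHF_AngII (1.18, interval 0.89 to 1.49) and H2afz, a histone variant, at 412 and 898 CPM (1.12). Mki67, a protein of dividing cells that was below the level tested, had 0 UMIs in the 51 members of SHF_Baseline, 20 UMIs in 5 members of SHF_AngII and 16 UMIs in 2 members of CNC_AngII, and 1 cell held 10 of the 20 and another 14 of the 16. Top2a had 1 UMI, 32 UMIs in 5 members and 19 UMIs. The ratio of Tubb5 was 0.99 in smooth muscle cells and 1.48 in fibroblasts, so the members were not alone in this.

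Genes that shear stress is known to induce were lower. Of 10 tested genes 5 were at least 2-fold lower and 0 higher, with a median log2 ratio of -0.98, and in large-vessel members 6 of 10 were lower (median -1.05). Klf2, the transcription factor at the head of this response, stood at 1150, 446 and 1090 CPM in SHF_Baseline, SHF_AngII and CNC_AngII. Per large-vessel cell its lowest, median and highest counts were 0, 5.5 and 83 at baseline, 0, 2 and 23 in SHF_AngII and 0, 3 and 28 in CNC_AngII, so the ranges overlapped. The log2 ratio of SHF_AngII over SHF_Baseline was -1.36 (interval -1.64 to -1.10), beside -0.62 in smooth muscle cells and -1.05 in fibroblasts. Klf4, its close relative, stood at 338, 146 and 310 CPM (-1.21), with -0.63 and -0.71 in the other classes.

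The endothelial nitric oxide synthase gene Nos3 stood at 241, 112 and 101 CPM, a log2 ratio of -1.10 (interval -1.68 to -0.57) for SHF_AngII over SHF_Baseline, beside 0.21 in smooth muscle cells and -0.37 in fibroblasts, whose pooled levels were 0.710 and 0.738 CPM. It had a UMI in 40 of 48, 19 of 30 and 9 of 23 large-vessel cells. Thbd, thrombomodulin, which turns thrombin into an anticoagulant enzyme, stood at 241, 100 and 151 CPM (-1.26, beside -0.30 and -1.93), and Dusp1, a phosphatase of MAP kinases, at 350, 146 and 243 CPM (-1.25, beside -0.98 and -1.26). Immediate early genes, which tissue digestion can also induce, were lower in part: 6 of 14 tested were at least 2-fold lower and 0 higher (median -0.54). Dusp1 is on both lists. Egr1 had a ratio of -1.21 in members, -1.29 in smooth muscle cells and -1.58 in fibroblasts. The part of digestion in the lower shear genes was not tested.

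Of the named genes that were lower in SHF_AngII, Lmo2, a bridging factor of the Tal1 and Gata2 complex, had the most UMIs: 630, 166 and 218 CPM, with a UMI in 43 of 48, 18 of 30 and 16 of 23 large-vessel cells. Its log2 ratio was -1.92 (interval -2.36 to -1.51), beside -0.23 in smooth muscle cells and -1.03 in fibroblasts. Gkn3 (133, 20 and 12 UMIs) had a ratio of -2.41 (-3.18 to -1.74), beside 0.12 and -0.06, with a UMI in 26 of 48, 9 of 30 and 8 of 23 large-vessel cells. Smooth muscle cells and fibroblasts of the SHF libraries held at most 1.53 CPM of Gkn3. Cmip had the lowest ratio, -2.51, but also -1.42 in smooth muscle cells and -1.55 in fibroblasts. Ptprj, a receptor phosphatase, stood at 211, 51.5 and 58.7 CPM (-2.01, beside -0.22 and -0.95). Podxl, a sialomucin of the luminal surface, stood at 176, 48.6 and 96.5 CPM (-1.83, beside -0.29 and -0.57). Efemp1 had a ratio of -1.90 (0.38 and -0.75 in the other classes), Lifr -1.87 (-0.67 and -1.32), Adgre5 -1.85 (0.20 and 0.10) and Nuak1 -1.84 (-0.28 and -0.04). None of these named genes rested on 1 cell: the top cell held at most 15.4% of the UMIs of any of them in SHF_Baseline.

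Cytl1 (chr5:37735519-37739820, plus strand, GRCm38, GENCODE M21), which had the highest pooled level in members of the genes named in this comparison, had 7749, 2343 and 2915 CPM in SHF_Baseline, SHF_AngII and CNC_AngII. Per large-vessel cell the lowest, median and highest counts were 1, 57.5 and 399 at baseline, 0, 22 and 77 in SHF_AngII and 0, 27 and 84 in CNC_AngII. All 48 baseline cells had a UMI, as did 26 of 30 and 21 of 23 of the AngII cells, and the baseline cells reached higher counts. The log2 ratio of SHF_AngII over SHF_Baseline was -1.73 (interval -1.84 to -1.62), beside -0.42 in smooth muscle cells and -2.61 in fibroblasts. In the same comparison Nrp1, a co-receptor of VEGF, stood at 935 and 275 CPM (-1.76, beside -1.09 and -1.32). Tek, the angiopoietin receptor, stood at 306 and 154 CPM (-0.98, beside -0.61 and -2.68) and Tgfbr2, a receptor of TGF-beta, at 144 and 34.3 CPM (-2.03, beside -0.54 and -1.15). Ltbp4, which binds latent TGF-beta, stood at 1433 and 535 CPM (-1.42), but smooth muscle cells and fibroblasts had ratios of -1.63 and -2.10.

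Other groups were mixed or level. Of 21 tested endothelial genes outside the rule, 0 were 2-fold higher and 2 lower (Nos3 and Lmo2), with a median of -0.39, and of 10 arterial genes 0 were higher and 2 lower (Nrp1 and Gja5). Of 15 BMP and TGF-beta genes 1 was higher (Bmp6) and 2 lower (Tgfbr2 and Ltbp4). Among 8 genes of hypoxia and glycolysis 4 were higher and 1 lower, but Pgk1 was 5.57 higher on the log2 scale in members and 4.28 in both other classes, and Gapdh 1.20 in members, 0.86 in smooth muscle cells and 1.16 in fibroblasts. Of 8 genes of adhesion and inflammation 3 were higher and 0 lower (median 0.67), but 113 of 115 Cxcl2 UMIs and 104 of 107 Lgals3 UMIs of SHF_AngII lay in the macrophage-marked member and 87 of 179 Cxcl12 UMIs in 1 other cell. In large-vessel members 1 of 6 was higher and 1 lower. The adhesion molecule genes Vcam1 (1428, 918 and 373 CPM in the 3 libraries) and Icam1 (206, 209 and 197 CPM) did not reach 2-fold between the SHF libraries. One baseline cell held 207 Vcam1 UMIs, 33.5% of those of SHF_Baseline, and another held 135. Both also held the smooth muscle marker Tagln, at 118 and 75 UMIs. The median Vcam1 level per large-vessel cell was 4.18, 7.12 and 4.64 UMIs per 10000 in the 3 libraries. By that measure SHF_AngII stood above SHF_Baseline, the opposite order to the summed levels.

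**Figure D4:**
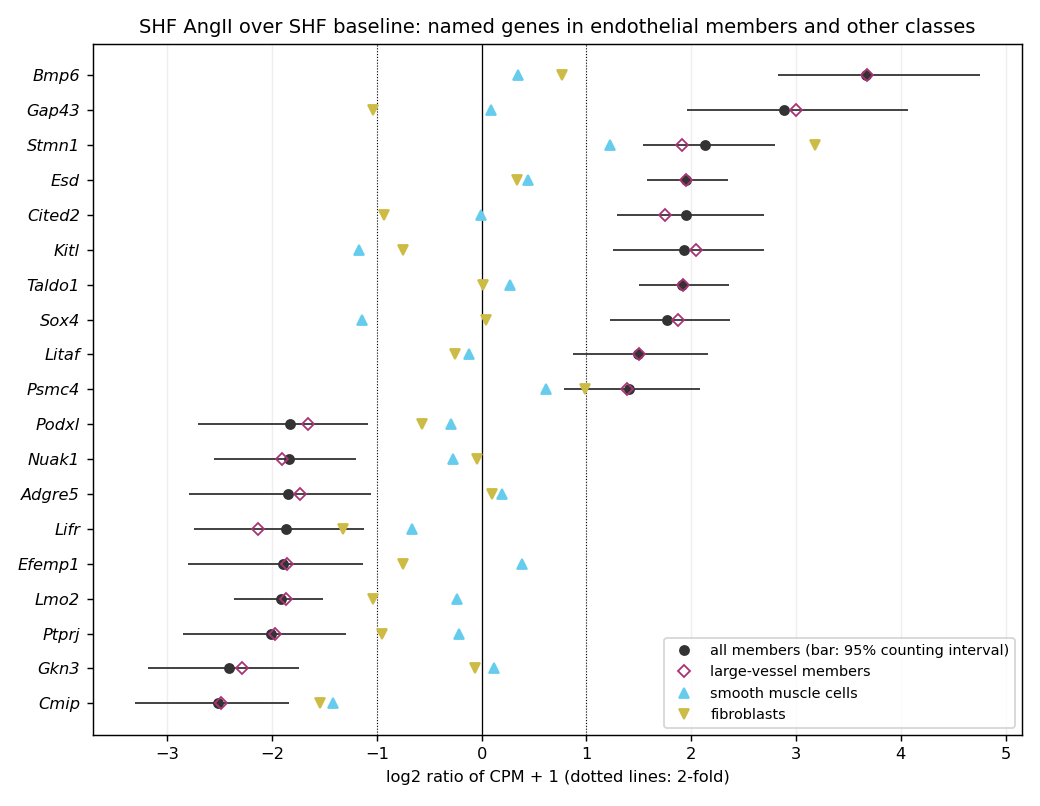
Log2 ratios of CPM + 1, SHF_AngII over SHF_Baseline, for the named genes. Circles are all members with 95% counting intervals, open diamonds large-vessel members, triangles smooth muscle cells and fibroblasts, and dotted lines mark 2-fold. Bmp6 stands at 3.67 in members. It stands at 0.34 and 0.77 in the other classes, where it was at most 1.23 CPM and the added 1 CPM holds the ratio near 0. Cmip is lower in members and in both other classes.

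CNC_AngII was then compared with SHF_AngII, the same library that entered the comparison above, so the 2 comparisons are not independent. Of 3015 genes, 135 (4.48%) were at least 2-fold higher and 115 (3.81%) at least 2-fold lower in CNC_AngII, with a median log2 ratio of -0.01. The highest ratios belonged to capillary genes, of which 9 of 10 tested were at least 2-fold higher (median 4.54, or 4.13 with genes at 0 set to their bound), and 5 of 6 lipid handling genes were higher. Of the 10 only Fabp4, Lpl and Sgk1 reached 50 CPM in SHF_AngII, so the others had to differ to be tested. CNC_AngII held 13 capillary-like cells and SHF_AngII 0. In large-vessel members, from which cells with 3 or more capillary markers had been taken out, 128 of 2945 genes (4.35%) were higher and 151 (5.13%) lower, and a lack of capillary genes among them is set by that choice.

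Gpihbp1 (chr15:75596628-75599481, plus strand, GRCm38, GENCODE M21) had 32.4 CPM in SHF_Baseline, 0 in SHF_AngII and 591 CPM in CNC_AngII. Against 3 UMIs as the floor of SHF_AngII it was at least 68.9-fold higher in CNC_AngII, and large-vessel members held 1 UMI of it there. Fabp4 stood at 477, 220 and 5134 CPM. Its log2 ratio of CNC_AngII over SHF_AngII was 4.54 (interval 4.21 to 4.89) in all members and 0.00 in large-vessel members. Cd36 stood at 99.5, 17.2 and 424 CPM (4.55), Rgcc at 4.63, 2.86 and 298 CPM (6.27) and Lpl, lipoprotein lipase, at 39.3, 77.2 and 315 CPM (2.01). In large-vessel members Rgcc had 1 UMI in SHF_AngII and 0 in CNC_AngII. Lpl had a UMI in 2 of 30 large-vessel cells of SHF_AngII, at most 3 per cell, and in 0 of 23 of CNC_AngII. Its ratio of -3.78 there is set by the added 1 CPM and is no measured fold.

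Some differences were also present among large-vessel members. Aqp1, a water channel, stood at 704, 389 and 1237 CPM, a ratio of 1.67 (interval 1.37 to 1.97) in all members, 1.59 in large-vessel members, 0.88 in smooth muscle cells and 2.36 in fibroblasts. Ly6c1, a surface protein of endothelial cells and monocytes, stood at 218, 65.8 and 688 CPM (3.37, and 1.90 in large-vessel members). Slfn5, an interferon-induced gene, stood at 64.8, 51.5 and 168 CPM (1.68, and 1.26), whereas the class I gene H2-T23 stood at 155, 71.5 and 239 CPM (1.73, and 0.48). Among large-vessel members Ly6c1 had a UMI in 9 of 30 SHF_AngII and 10 of 23 CNC_AngII cells, and Slfn5 in 7 and 11. The median count of both genes was 0 in both libraries, and 1 CNC_AngII cell held 34.1% of the Ly6c1 UMIs there. Rdx, which links membrane proteins to actin, had a ratio of 1.59, but 116 of its 190 UMIs in CNC_AngII came from 1 cell, and without that cell it was 0.30. Klf2 was 1.29 higher in CNC_AngII on the log2 scale and 0.99 in large-vessel members.

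Of the named genes that were lower in CNC_AngII, Edn1 was the most abundant, at 893 CPM in SHF_AngII and 289 CPM in CNC_AngII. Its ratio was -1.62 (interval -2.02 to -1.24) in all members and -1.07 in large-vessel members, and it was -1.21 without the SHF_AngII cell that held 102 of 312 UMIs. A second SHF_AngII cell, still included there, held 73. The median Edn1 level per large-vessel cell was 3.20 UMIs per 10000 in SHF_AngII and 2.44 in CNC_AngII, so the middle cells differed less than the sums. The others were Gap43 (-2.20), Lmo4 (-2.10), Pgk1 (-2.02), Cited2 (-1.51), Esd (-1.49), Taldo1 (-1.46), Plaur (-1.46), Chic2 (-1.46) and Degs1 (-1.41). For 8 of these 10 the highest count lay in the same SHF_AngII cell of 35658 UMIs. Without it the ratio of Plaur was -0.25, that of Cited2 -0.82 and that of Chic2 -0.97.

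**Figure D5:**
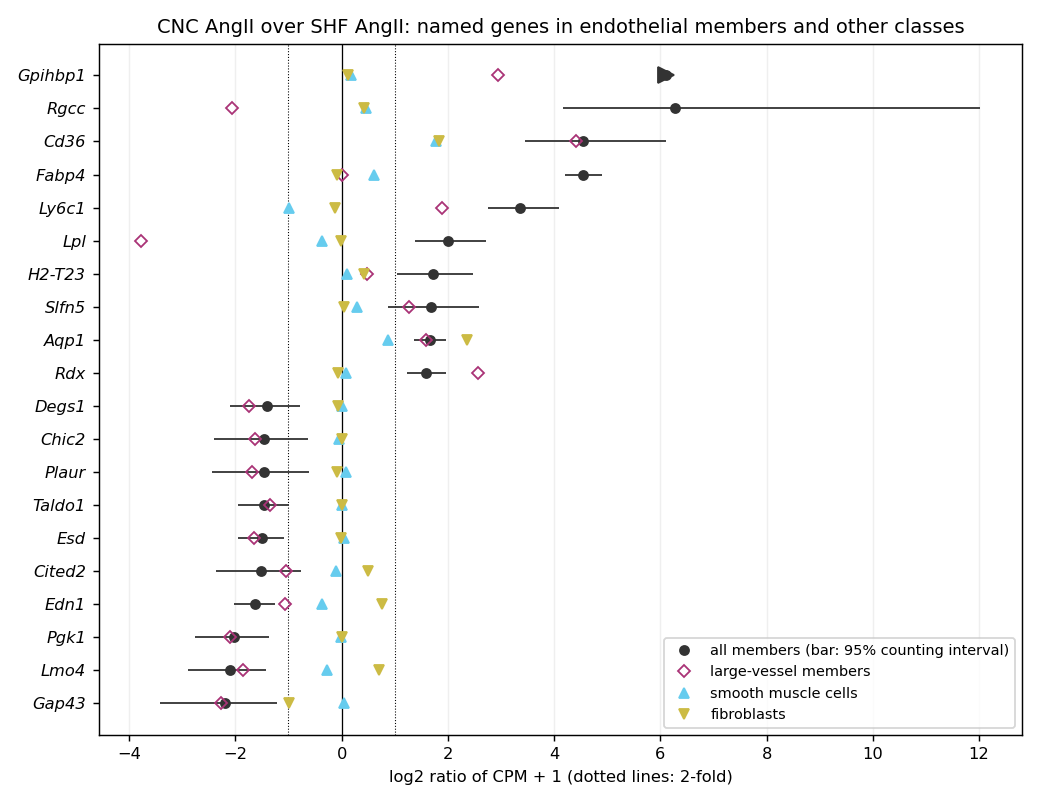
Log2 ratios of CPM + 1, CNC_AngII over SHF_AngII, for the 20 named genes, with symbols as in the plot of AngII over baseline. Gpihbp1 is drawn as an arrowhead at its lower bound. Fabp4 stands at 4.54 in all members and at 0.00 in large-vessel members, whereas Aqp1 stands at 1.67 and 1.59.

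Transcripts of other cell types in the members moved with the libraries. The 7 smooth muscle markers summed to 1345, 3719 and 2324 CPM in members of SHF_Baseline, SHF_AngII and CNC_AngII, against 60153 to 69597 CPM in smooth muscle cells. Of the 3 tested in SHF_AngII over SHF_Baseline all 3 were at least 2-fold higher (median 1.67), Acta2 standing at 569 and 1819 CPM, while Des was at 0 in both SHF libraries and Myh11 was limited by the rule. The 7 fibroblast markers summed to 3416, 2835 and 914 CPM, and 618 of the 994 Dcn UMIs of SHF_Baseline lay in 1 member. The 7 macrophage markers had 0 UMIs in SHF_Baseline and summed to 252 and 2219 CPM in the AngII libraries, but to 3.19 and 94.2 CPM in their large-vessel members. The 6 mesothelial markers were at 0 throughout. The part of these transcripts in the differences between libraries was not tested. Large-vessel members alone held as much of the smooth muscle markers, at 1363, 4078 and 3390 CPM.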

How the data were processed

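The authors deposited 1 table of UMI counts per library, genes by barcodes, not normalised. mm10, fastp, STAR 2.5 and HTSeq 0.6.1 are named per the submitters' processing notes, with no step given for any of them. The SHF_Baseline file lists 18760 genes and both AngII files 32285. Every gene listed for SHF_Baseline had a UMI, whereas 11717 genes of SHF_AngII and 11545 of CNC_AngII had none. A gene missing from the SHF_Baseline file was left out of every comparison, even where the AngII libraries held UMIs of it. Names were joined over 18107 common genes, 513 of them through a synonym, which held 99.8, 99.5 and 99.5% of the UMIs. The libraries held 9412, 11166 and 11098 barcodes and 92474476, 147854476 and 150954701 UMIs in SHF_Baseline, SHF_AngII and CNC_AngII.

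Counts were summed over members (Python 3.11.15, numpy 2.4.6, scipy 1.17.1, pandas 2.3.3), scaled to CPM and compared as log2 of CPM + 1. Genes below 50 CPM were left out: of the pool of members and of other cells in the profile, and of the mean of the 2 libraries in a comparison. With 1 library per group no test was made, and past 2-fold (4-fold in the profile) a gene is called higher or lower. Intervals are exact: Poisson for levels, binomial given the summed UMIs for ratios and Clopper-Pearson for shares. A fold against 0 used a floor of 3 UMIs. The members of 1 library share their source and are not replicates. The computation was tested on simulated data.

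Doublets were scored with Scrublet (scanpy 1.11.5), which marked 2.78, 2.23 and 2.99% of scored barcodes and 0 members, and were kept. Smooth muscle cells and fibroblasts numbered 13582 and 7549 over the 3 libraries. Alternatives were the cell and gene filters, the number of markers, the pseudocount, TMM (edgeR 4.0.16, R 4.3.3), totals without mitochondrial and ribosomal protein genes, per-cell means, thinning to 2000 UMIs, doublets left out and libraries or members left out.

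The named genes were the 20 with the highest ratio of members to other cells among genes with a UMI in at least 20% of members, and, for each comparison, the 10 genes at either end of the ratios among genes with a mean of at least 100 CPM, a UMI in at least 20% of members of the higher library and a level in members at least that in other cells. Genes of the rule, mitochondrial and ribosomal protein genes, markers of other cell types (in the comparisons) and genes past 4-fold the same way in both other classes were left out. To these came the genes of 23 lists. One named gene that was lower in SHF_AngII is not reported here. The members, lists and rules were chosen with earlier results of these data known.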

Additional observations from a re-analysis of the deposited data

Results flagged for a closer look

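In SHF_AngII over SHF_Baseline, 3 named genes were higher in endothelial members and at least 2-fold lower in another cell class of the same libraries. Gap43 had a log2 ratio of 2.88 in members and -1.03 in fibroblasts, which held 8.06 CPM in SHF_Baseline and 3.43 CPM in SHF_AngII. In SHF_AngII 21.2% of members had a Gap43 UMI. Kitl had 1.93 in members and -1.17 in smooth muscle cells, and 49 of its 72 UMIs in members of SHF_AngII lay in 1 cell. Smooth muscle cells held 10.8 CPM of Kitl in SHF_Baseline and 4.24 CPM in SHF_AngII. Sox4 had 1.77 in members and -1.14 in smooth muscle cells. The difference between the cell classes was not tested, since each rests on 1 library per group.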

How the results depend on the processing

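When 1000 detected genes were required and no more than 5% mitochondrial UMIs allowed, the members were 30, 21 and 20 in SHF_Baseline, SHF_AngII and CNC_AngII. The profile held 140 genes at least 4-fold higher with a minimum of 100 CPM and 401 with 20 CPM. Counts of 2-fold differences moved in the same way: with minimums of 100 and 20 CPM, 76 and 492 genes were higher and 88 and 575 lower in SHF_AngII over SHF_Baseline, and 46 and 485 higher and 49 and 415 lower in CNC_AngII over SHF_AngII. With cells thinned to 2000 UMIs the counts were 409 higher and 400 lower in the first and 306 higher and 387 lower in the second, whose median over all genes was then -0.12. The remaining 58 of 75 counts stayed within 1.5 times the values reported. Of 520 recomputed ratios of named genes 467 stayed within their counting interval, 50 moved and 3 changed sign: Kitl to -0.39 after thinning, and Rgcc to -2.07 and Lpl to -3.78 in large-vessel members. Rgcc and Lpl had 0 UMIs in the large-vessel members of CNC_AngII, so the added 1 CPM sets both of these values. Past 2-fold remained 18 of 20 ratios in the first comparison and 14 of 20 in the second after thinning, 20 and 16 in large-vessel members, and 19 and 16 without the cell holding the most UMIs of the gene. TMM kept 20 and 20. Members held 238422 to 432029 UMIs per library, which limits genes of low counts. No paired analysis was possible because each group has 1 library.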

Other observations

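Endothelial cells held more class I histocompatibility transcripts, which present peptides to CD8 T cells, than the other kept cells. H2-D1 stood at 2106, 1470 and 1644 CPM in SHF_Baseline, SHF_AngII and CNC_AngII (log2 ratio to other cells 2.46), with a UMI in all 124 members, and H2-K1 at 1259, 1018 and 1120 CPM (2.30). Of 14 tested genes of class I and II molecules and interferon response, from a list of 23, 4 were at least 4-fold higher in members than in other cells. That count is too small to set against the share over all genes. Among the groups, chosen after their values were seen, capillary-like cells held more of several surface and interferon-induced genes than large-vessel cells: Ifitm3 at 3970 against 1561 CPM, Ly6a at 1716 against 498 CPM and Ly6e at 1300 against 300.3 CPM. Rsad2, an interferon-induced antiviral gene, had 11 UMIs in 6 of the 14 capillary-like cells and 0 in the 101 large-vessel cells. Since 13 of these 14 cells but 23 of these 101 came from CNC_AngII, group and library cannot be told apart here.

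Markers of the endocardium, the lining of the heart and its valves, were thin in most members apart from Cytl1. In SHF_Baseline 1 member had a UMI for 4 and another for 5 of the 6 markers, and no member of the AngII libraries had more than 3. Hapln1, a link protein of valve matrix, had 16 UMIs in 2 members of SHF_Baseline and 0 in the AngII libraries, and Wnt9b had 6 UMIs in SHF_Baseline and 0 in the others.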
